A study of Mus musculus with 24 samples.

Results

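Serpins are a superfamily of proteins, most of them inhibitors of serine or cysteine proteases. A serpin offers its reactive loop to a protease as bait, and on cleavage of the loop it changes shape and holds the enzyme in a covalent complex. Clade A and most of the smaller clades are secreted, with roles in coagulation, complement, inflammation and matrix turnover, while clade B serpins lack a classical signal peptide and mostly act inside cells, many of them in epithelia and leukocytes. Some members, such as Serpinh1 and Serpinb5, are not known as classical protease inhibitors.

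All genes whose GENCODE mouse symbol begins with Serpin were taken, and 7 of the 68 such symbols were left out as pseudogenes. The 61 remaining genes were all among the 63862 features listed for each library. They comprised 24 clade A, 26 clade B, 3 clade E, 2 clade F and 2 clade I genes, and 1 gene each of clades C, D, G and H. The symbols alone decided membership, so no expression value chose a member.

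RNA sequencing of C57BL/6 mouse lacrimal gland (LG) and of lacrimal gland stem cell (LGSC) spheres was examined in 20 libraries. The spheres were grown from LGs of mice 6 to 8 weeks of age, embedded in Matrigel in a serum-free medium containing EGF, FGF10, Wnt3A and the ROCK inhibitor Y-27632. They were harvested at passage 2 after 5 days (2 libraries) or after 7, 10 or 14 days (3 libraries each). Whole LG was sequenced at embryonic days E17.5 and E19.5 and in the adult (3 libraries each), and the labels give neither the sex nor the exact age of the adult mice. A further library of passage 10 spheres at day 7 was compared by value only. The labels do not say whether libraries with different replicate numbers came from separate mice or cultures, so p-values measure the spread between these libraries, which may be technical.

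Values are FPKM, that is, fragments per kilobase of transcript relative to a scaling total set for each library. Levels of different genes can be set side by side only where their reads were counted alike. Differences are given on the scale of log2(FPKM + 1), on which changes of genes near 0 come out smaller than their fold. The reads recovered from the FPKM steps came to between 6434281 and 9257025 per library. They were 2.67, 2.57 and 1.10 times the scaling total in adult LG replicates 1, 2 and 3, and 0.83 to 1.13 times it elsewhere. FPKM levels of adult replicates 1 and 2 are therefore higher than they would be relative to recovered reads. In adult LG replicates 1 and 2 the 10 leading genes held 60.4% and 59.6% of all reads, against 31.3% in replicate 3 and at most 8.07% in the other 17 libraries. Rescaling to the recovered reads moved the median difference of all genes from 0.05 to 0.57 for E17.5 LG against adult LG, from 0.09 to 0.52 for E19.5 LG and from -0.08 to 0.51 for day 7 spheres. Of the genes past the threshold, the share that was higher then moved from 53.8% to 79.7%, from 55.9% to 79.5% and from 40.2% to 74.2%. For E19.5 LG against E17.5 LG that share moved from 64.1% to 48.8%.

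The labelled tissues were set against marker genes. Of the 6 epithelial markers, Epcam and Krt8 were listed at 0 in all 20 libraries, while the other members gave summed levels of 330 to 2633 FPKM. Krt18 and Cdh1 supplied most of that sum. Krt14 read 3.35 to 17.8 FPKM in spheres and at most 0.78 FPKM in LG. Krt5 read 0.39 to 5.52 FPKM in spheres and at most 0.18 FPKM in LG. Of 5333 genes with at least 10 FPKM in the passage 10 library, 577 (10.8%) were also listed at 0 in all 20. A gene listed at 0 throughout may therefore be one that was not counted, and no upper limit is given for it. Of the same 5333 genes, 50.6% had a passage 2 day 7 mean under 10% of their passage 10 value. Low levels may thus also be counted in part, and passage and processing cannot be told apart there. Among the 5 acinar markers, Mucl2 alone read 171251 to 807362 FPKM in adult LG and at most 58.3 FPKM elsewhere. Bhlha15 was listed at 0 in all 20 libraries, Aqp5 read at most 0.57 FPKM, and Ltf overlapped between adult LG (0.96 to 6.65 FPKM) and day 14 spheres (1.27 to 3.21 FPKM). The 6 fibroblast markers summed to between 4705 and 5680 FPKM in embryonic LG, to between 164 and 323 FPKM in adult LG and to at most 1.41 FPKM in spheres. The 6 leukocyte markers summed to between 132 and 250 FPKM in adult LG, to between 83.1 and 134 FPKM in embryonic LG and to at most 1.82 FPKM in spheres. In such bulk libraries, fewer cells of a type and less RNA per cell cannot be told apart.

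Replicate 2 of the spheres had the highest summed clade B level at all 4 culture days, as described with Serpinb3a. At day 5 it could be set against replicate 1 only.

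Start-site windows of 3 clade B genes are shown because of how their levels ran in spheres. They separated either day 14 from the other culture days (Serpinb6b) or replicate 2 from the other replicates (Serpinb3a and Serpinb12). The windows are RefSeq sequences on GRCm38.p6 ending at the base before the annotated gene, written along the transcribed strand, with the motif found in capitals. Serpinb6b lies at chr13:32965011-32965208 on the plus strand, Serpinb3a at chr1:107052304-107052553 on the minus strand and Serpinb12 at chr1:106934199-106934448 on the plus strand.
Serpinb6b: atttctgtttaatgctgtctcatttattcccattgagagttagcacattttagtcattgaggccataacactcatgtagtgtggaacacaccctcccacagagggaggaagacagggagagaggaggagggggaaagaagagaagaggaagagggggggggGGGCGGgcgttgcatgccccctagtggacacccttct
Serpinb3a: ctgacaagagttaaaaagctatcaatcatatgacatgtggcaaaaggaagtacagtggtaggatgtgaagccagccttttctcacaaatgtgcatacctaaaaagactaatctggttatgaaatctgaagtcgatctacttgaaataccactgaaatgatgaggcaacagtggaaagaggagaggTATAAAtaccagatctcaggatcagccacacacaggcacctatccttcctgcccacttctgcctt
Serpinb12: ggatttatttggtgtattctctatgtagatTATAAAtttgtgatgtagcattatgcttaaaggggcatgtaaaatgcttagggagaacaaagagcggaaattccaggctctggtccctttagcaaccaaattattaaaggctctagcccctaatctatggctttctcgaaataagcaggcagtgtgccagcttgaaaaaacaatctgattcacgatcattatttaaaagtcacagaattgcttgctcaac
The motifs searched on both strands were the TATA box (TATAAA), the CCAAT box (CCAAT), the GC box (GGGCGG) and the AP-1 site (TGACTCA). Serpinb6b held GGGCGG at position -89 from the RefSeq start, and Serpinb3a and Serpinb12 held TATAAA at -65 and -220. Windows were matched for 52 of the 61 genes. TATAAA occurred in 14 of these 52 and in 12.4% of 32851 RefSeq windows, and GGGCGG in 7 of the 52 and in 32.7% of all windows. CCAAT occurred in 17 of the 52 and in 33.85% of all windows, and TGACTCA in 6 of the 52 and in 4.46%. A match is a description of the letters and not of a bound site.

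The clades differed in where they were expressed. In spheres clade B made up 57.7% to 89.0% of the summed FPKM of the 61 genes and clade E made up 9.63% to 38.9%. Without replicate 2 these shares were 57.7% to 73.5% and 24.1% to 38.9%. In embryonic LG clade G, the complement inhibitor Serping1 alone, made up 51.0% to 66.6%. In adult LG the makeup varied by library, with clade G at 16.9%, 62.6% and 77.5% and clade A at 76.5%, 22.2% and 2.47% in replicates 1, 2 and 3. Clades C, D, H and I each made up at most 2.51% of the sum in any library.

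**Figure D1:**
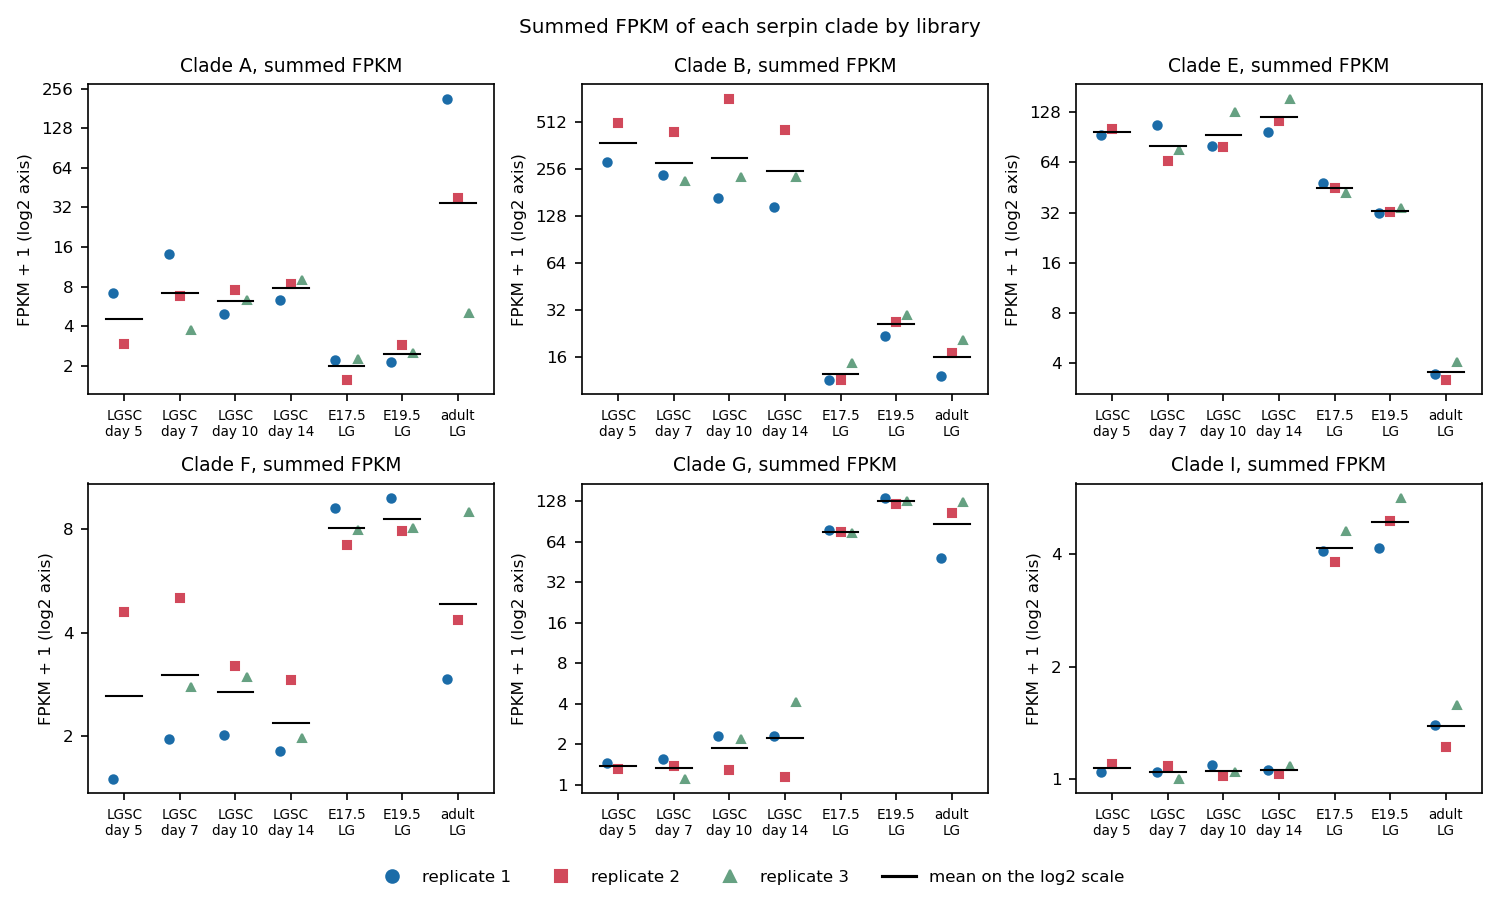
Summed FPKM of the genes of 6 serpin clades in each of 20 libraries, plotted as FPKM + 1 on a log2 axis, with points for libraries shaped by replicate number and bars for the mean on the log2 scale. Clade B sums lay between 145 and 719 FPKM in spheres and between 10.4 and 28.8 FPKM in LG, clade G sums were at most 3.11 FPKM in spheres and at least 47.4 FPKM in LG, and replicate 2 was the highest sphere library for clade B at every day.

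Of the 61 genes, 16 were listed at 0 in all 20 libraries. Another 27 had reads but a mean below 0.5 FPKM over the 20, and 18 reached that mean. Each clade had few genes that carried it. Serpinb5 supplied 95.2% of the mean clade B sum of spheres at day 5 and 65.1% at day 10, although at day 10 it supplied 91.7% and 92.1% in replicates 1 and 3 and 50.6% in replicate 2. Serpine2 supplied at least 98.8% of the clade E sum in every group, and Serpina3k supplied 91.7% of the clade A sum in adult LG.

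Clade B was followed over sphere culture. Its 26 genes lie in 2 clusters, 11 on chromosome 1 between 106861173 and 107610484 and 15 on chromosome 13 between 32842092 and 34002794 (GRCm38). Reads were recovered for 7 of the 11 and 14 of the 15 genes.

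Serpinb5, known as maspin and found in many stratified and glandular epithelia, was the most abundant serpin of the spheres. Day 5 spheres gave 273 and 473 FPKM, day 7 spheres 218, 349 and 204, day 10 spheres 151, 364 and 207, and day 14 spheres 128, 210 and 206 FPKM. In LG it stood at 2.71, 2.38 and 3.18 at E17.5, at 1.91, 3.24 and 3.57 at E19.5, and at 2.26, 2.18 and 10.6 in the adult. Every sphere library was thus at least 12.1-fold above every LG library, and adult LG replicate 3 was the highest LG library.

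Between day 7 spheres and adult LG the log2 difference of Serpinb5 was 5.67 (SE 0.55, adjusted p = 0.000796 by limma with Benjamini-Hochberg adjustment), the largest positive difference among the serpins tested. Over culture days Serpinb5 had a slope of -0.10 per day (SE 0.04, adjusted p = 0.198, limma). With the replicate number as a block the slope was -0.09 per day and passed the threshold (adjusted p = 0.0377, limma). Without replicate 2 it was -0.07 per day (adjusted p = 0.265, limma).

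Serpinb6b, an intracellular serpin of the Serpinb6 group on chromosome 13 (32965209 to 32979067), passed the test over culture days. Day 5 libraries read 3.59 and 4.30 FPKM, day 7 libraries 6.45, 4.58 and 4.05, day 10 libraries 10.1, 6.26 and 11.8, and day 14 libraries 12.8, 14.0 and 15.8 FPKM. No day 14 library overlapped a library of another day, and the days 5 and 7 overlapped. The study lists this gene among its day 7 and day 14 differences chosen on the same libraries, so its direction here is not independent evidence.

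The slope of Serpinb6b was 0.19 per day (SE 0.02, adjusted p = 0.00906, limma), and it was the only call among 16 serpins tested, where 2.14% of 15584 genes passed and 0.648% were higher with time. The slope lost the threshold without day 5 replicate 1 (adjusted p = 0.055) and with days 7, 10 and 14 alone (adjusted p = 0.176), at 0.18 and 0.19 per day. Without replicate 2 of every day it was 0.19 per day (adjusted p = 0.0273). With the replicate block the number of serpins called went from 1 to 2, Serpinb6b and Serpinb5. Of the 9 clade B genes tested, 6 had a positive and 3 a negative slope, with a median of 0.03 per day beside 0.00 over all genes.

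Day 14 was compared with day 7 directly, by limma on log2(FPKM + 1). The study listed differences between these days from DESeq2, another method and measure. An absence of calls here therefore does not mean that the days do not differ. None of the 16 serpins tested by limma passed, where 0% of 15744 genes did, and at an unadjusted p under 0.05 there was 1 serpin (Serpinb6b) of 16 and 9.89% of all genes. Serpinb6b was 1.35 higher on the log2 scale at day 14 (SE 0.20, adjusted p = 0.335, limma), and a fit over all 20 libraries called it (adjusted p = 0.0312). The groups did not overlap for 2 of the 16 serpins, Serpinb6b and Serpina1e, and for 17.4% of all genes.

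In LG Serpinb6b had the highest group mean of clade B at each stage, although adult replicate 3 read more Serpinb5 (10.6 FPKM). The E17.5 values were 5.17, 5.41 and 7.35 FPKM, the E19.5 values were 15.7, 20.0 and 21.6 FPKM, and the adult values were 7.88, 11.7 and 6.43 FPKM. The E19.5 libraries lay above all other LG libraries, and E17.5 and adult overlapped.

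Serpinb6b was 1.53 higher on the log2 scale at E19.5 than at E17.5 (SE 0.23, adjusted p = 0.0230, limma), the only call among 11 serpins tested, where 1.74% of 18578 genes passed and 1.11% were higher. That call was lost on leaving out E17.5 replicate 1, E17.5 replicate 2, E19.5 replicate 2 or E19.5 replicate 3, with adjusted p = 0.118, 0.106, 0.0997 and 0.111 and differences of 1.44, 1.47, 1.49 and 1.44, and with limma-voom on recovered reads. It was also 1.08 higher at E19.5 than in the adult (SE 0.23, adjusted p = 0.00434, limma). The E17.5 difference from the adult was -0.45 (adjusted p = 0.131) and turned to 0.42 when rescaled to recovered reads (adjusted p = 0.158), while without adult replicate 3 it was -0.62 and passed (adjusted p = 0.0347). Day 7 spheres differed from the adult by -0.67 (adjusted p = 0.108, limma), which turned to 0.29 on the same rescaling (adjusted p = 0.468) and was -0.84 without adult replicate 3 (adjusted p = 0.0473).

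The paralogs of Serpinb6b had other levels. Serpinb6a, whose product inhibits leukocyte granule proteases among others, stayed between 0.44 and 1.70 FPKM in all 20 libraries. Serpinb6e reached 0.26 FPKM at most, and Serpinb6d was listed at 0. Serpinb6c stood at 5.51, 6.25, 10.5 and 0.73 FPKM in replicate 2 of the spheres at days 5, 7, 10 and 14, and at 0.39 FPKM or less in replicates 1 and 3.

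Replicate 2 of the spheres also carried the highest Serpinb3a, a gene of the squamous cell carcinoma antigen group. Its FPKM values there were 12.5 at day 5, 60.8 at day 7, 238 at day 10 and 198 at day 14. Replicates 1 and 3 stood between 0 and 2.65 FPKM, and LG between 0 and 0.16 FPKM. Serpinb12, of the same cluster on chromosome 1, stood at 0.41, 7.32, 92.4 and 17.6 FPKM in replicate 2 and at most at 0.26 FPKM in replicates 1 and 3.

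The same ordering held for further clade B genes, but not for Serpinb6a, Serpinb6b or Serpinb8, for which replicate 2 was not highest at every day. Replicate number beside the culture day was called for 7 of 16 serpins tested and for 9.36% of 15584 genes (limma F test, adjusted p under 0.05). That test was added after these values were seen. Serpinb9b was 1.55 to 4.33 FPKM in replicate 2 against 0.28 to 0.79 FPKM in the other replicates, and Serpinb1b was 2.02 to 2.53 against 0.18 to 1.16 FPKM. Serpinb3d had reads in replicate 2 alone, with 2, 2, 11 and 2 reads at days 5, 7, 10 and 14 (0.18 to 1.17 FPKM). So did Serpinb2 at days 7, 10 and 14, with 14, 7 and 4 reads (0.19 to 0.76 FPKM). Serpinb5 was highest in replicate 2 at all 4 days, although its ranges overlapped. Serpinb10, left out because it is annotated as a polymorphic pseudogene, read 1.56 to 4.87 FPKM in replicate 2 and at most 0.37 FPKM in the others.

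**Figure D2:**
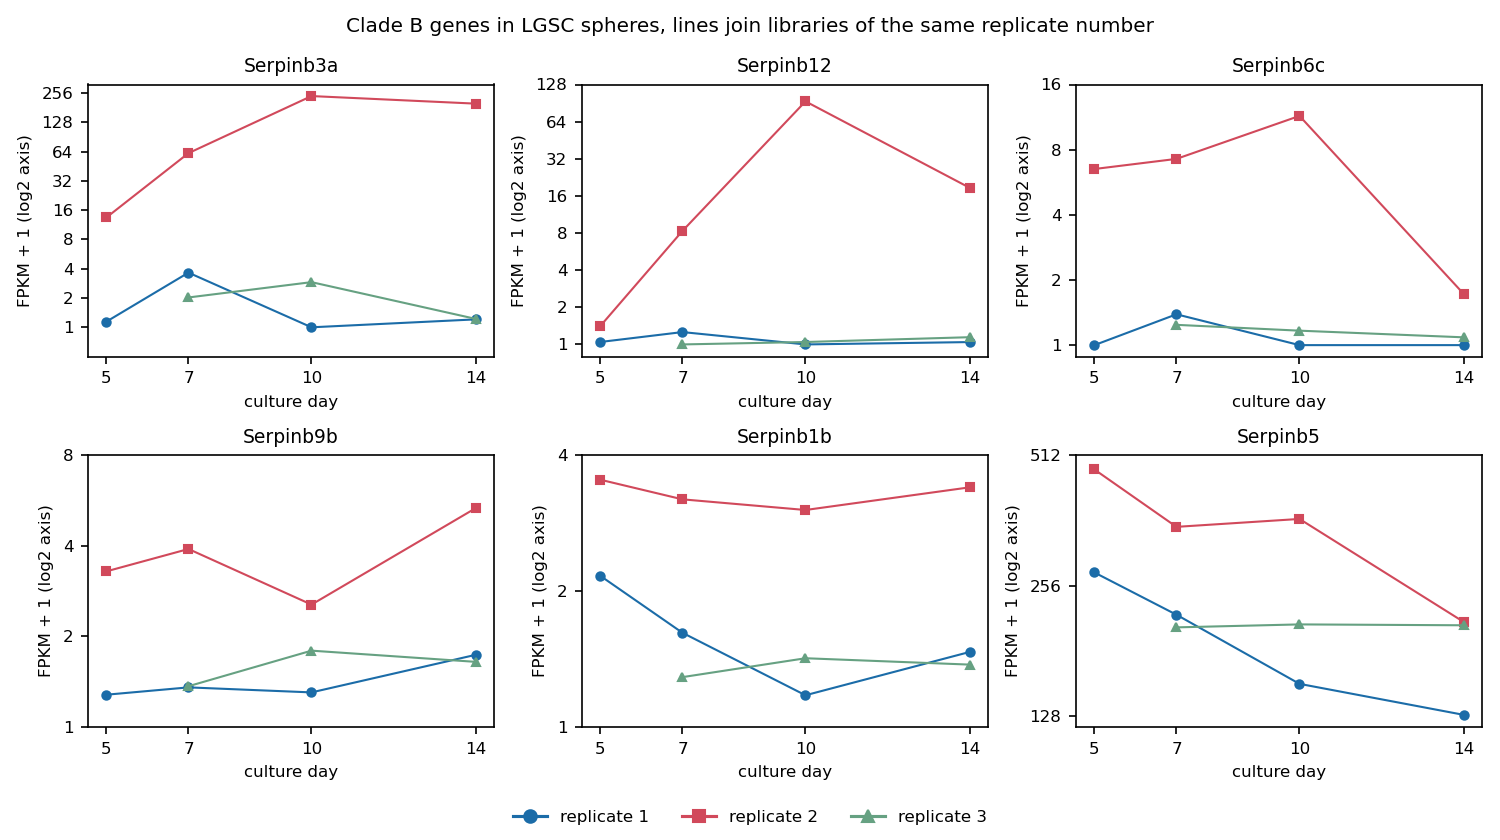
FPKM + 1 on a log2 axis against culture day for 6 clade B genes in 11 LGSC sphere libraries, with lines joining libraries of the same replicate number. Replicate 2 lies above the other libraries of the same day in each panel, with replicate 1 alone beside it at day 5. For Serpinb3a it ran from 12.5 to 238 FPKM against at most 2.65 FPKM.

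Of the epithelial markers, Krt18 and Krt5 also separated replicate 2 from the other replicates. Krt18, a keratin of simple epithelia, read 130 to 176 FPKM in replicate 2 and 689 to 1734 FPKM in replicates 1 and 3, while Krt5, a basal cell keratin, read 2.05 to 5.52 FPKM in replicate 2 and 0.39 to 1.54 FPKM in the others. The ranges of Krt14 (8.18 to 17.8 FPKM in replicate 2, 3.35 to 11.9 FPKM in the others) overlapped. So did those of Cdh1 (388 to 574 against 553 to 916 FPKM), and Epcam and Krt8 were listed at 0. The part of these markers in the serpin result was not tested.

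The levels of Serpinb3a over culture differed by replicate number. Its share of the clade B sum in replicate 2 was 2.48%, 13.9%, 33.0% and 43.9% at days 5, 7, 10 and 14, and its slope over all libraries was 0.05 per day (SE 0.26, adjusted p = 0.944, limma). Leaving out replicate 2 gave -0.07 per day (adjusted p = 0.676). In the comparison of day 7 spheres with adult LG its difference was 2.87 (SE 1.20, adjusted p = 0.107), and without replicate 2 it was 1.37 and passed (adjusted p = 0.0285, limma). About 6.53% of its 100-base stretches also occur in another annotated gene, so part of its reads could belong elsewhere.

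Serpinb8, an intracellular serpin of chromosome 1, was between 1.05 and 2.38 FPKM in spheres and at most 0.43 FPKM in LG. Its difference between day 7 spheres and the adult was 0.88 (SE 0.19, adjusted p = 0.0128, limma). Serpinb6c differed between embryonic and adult LG, with values of 0.92, 1.04 and 0.54 FPKM at E17.5, 1.07, 0.72 and 1.37 FPKM at E19.5, and 0, 0.45 and 0.28 FPKM in the adult. The groups did not overlap, yet the E17.5 call (0.57, SE 0.20, adjusted p = 0.0401) was lost on leaving out any of adult replicate 1 (adjusted p = 0.114), E17.5 replicate 1 (0.108), E17.5 replicate 2 (0.125) or E19.5 replicate 1 (0.0585). At E19.5 the difference was 0.73 (adjusted p = 0.0143, limma), lost without E19.5 replicate 3 (adjusted p = 0.0551). In the fit of all 20 libraries neither passed (adjusted p = 0.608 and 0.502).

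The remaining clade B genes were low as listed. The Serpinb9 group, whose product Serpinb9 protects cells against granzyme B, read at most 0.23 FPKM apart from Serpinb9b, and 4 of its members share more than 10% of their 100-base stretches with other genes. Serpinb1a, an inhibitor of neutrophil proteases, read at most 0.21 FPKM and Serpinb1c at most 0.28 FPKM. Serpinb3b, Serpinb7, Serpinb11 and Serpinb13 were listed at 0 in all 20 libraries.

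In clade E, Serpine2 (protease nexin 1, a secreted inhibitor of thrombin and plasminogen activators) followed Serpinb5 in mean level over the 11 sphere libraries, at 98.2 against 253 FPKM. Sphere values ran from 63.5 to 153 FPKM. E17.5 LG gave 46.7, 43.9 and 40.6 FPKM, E19.5 LG gave 30.4, 31.1 and 32.8 FPKM, and adult LG gave 2.45, 2.17 and 3.01 FPKM. The ranges of spheres, E17.5, E19.5 and adult LG did not overlap.

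**Figure D3:**
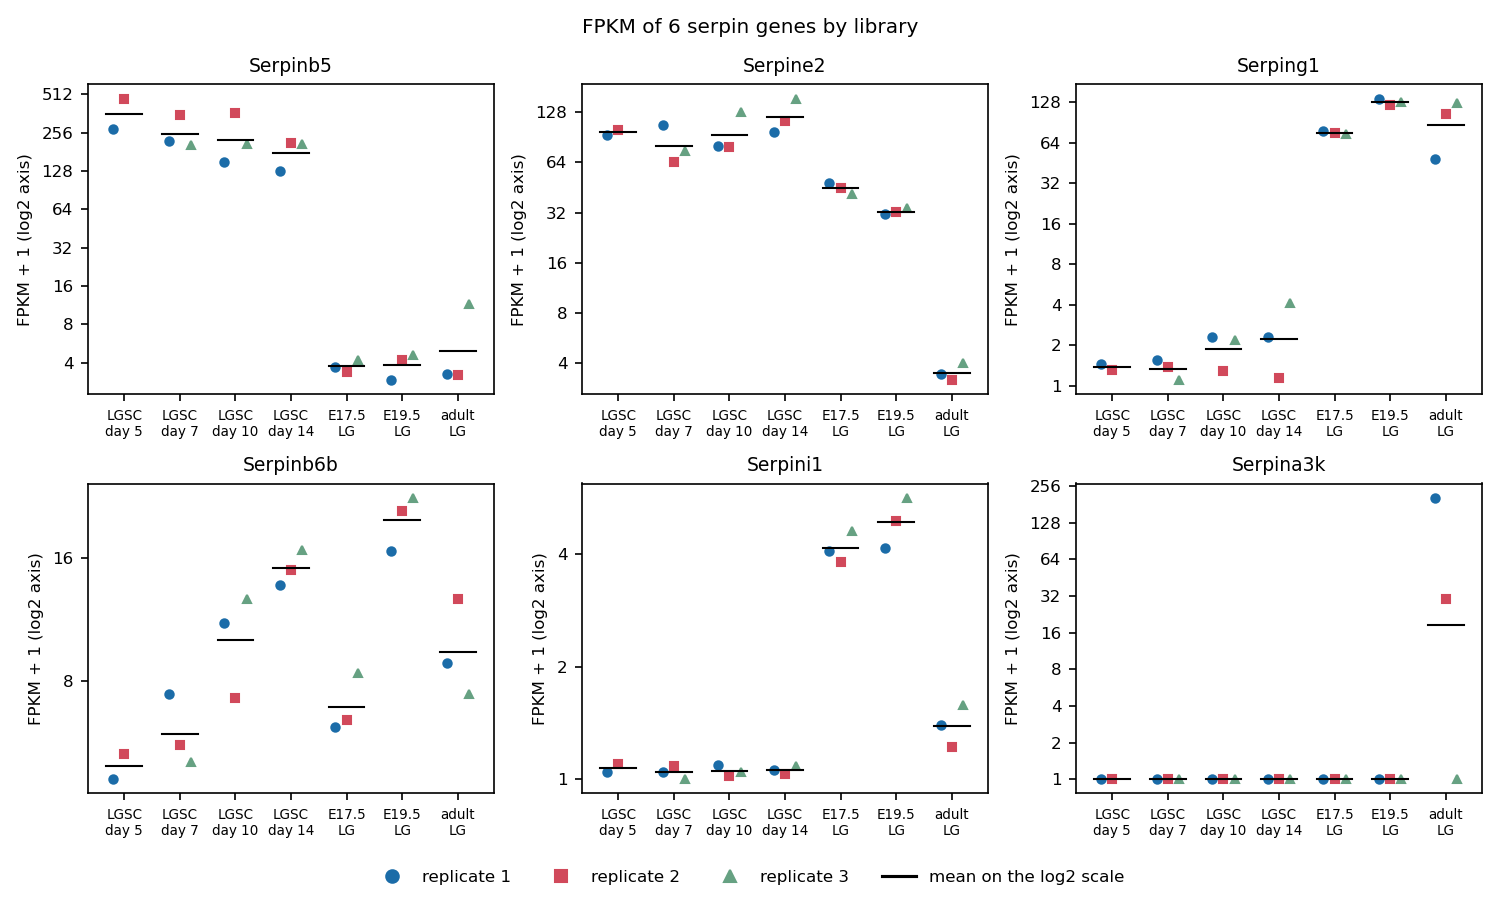
FPKM + 1 on a log2 axis of 6 serpin genes in 20 libraries, with points for libraries shaped by replicate number and bars for the mean on the log2 scale. Serpinb5 and Serpine2 are highest in spheres, Serping1 and Serpini1 in LG, Serpinb6b at E19.5 and at day 14, and Serpina3k has reads in 2 adult libraries only, at 205 and 29.0 FPKM.

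Serpine2 was higher than in the adult by 3.66 on the log2 scale at E17.5 (SE 0.13, adjusted p = 3.69e-07), by 3.20 at E19.5 (SE 0.13, adjusted p = 7.55e-07) and by 4.51 in day 7 spheres (SE 0.25, adjusted p = 0.000152), all by limma. These comparisons share the adult libraries. Between the embryonic stages the difference was -0.46 (SE 0.13, adjusted p = 0.144), and it passed without adult replicate 3 in the shared fit (adjusted p = 0.0196). Against the adult, 6 of 6 fibroblast markers were also called higher at each embryonic stage. Between the embryonic stages 0 of 6 were called, with a median difference of -0.04. In spheres these markers were near 0 and Serpine2 was higher than in LG. Their part in the Serpine2 result was not tested. The day slope was 0.05 per day (adjusted p = 0.378, limma).

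Serpine3, also of clade E, read at most 0.62 FPKM.

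Clade G is represented by Serping1, the C1 inhibitor that restrains the complement and kallikrein systems. It stood at 76.7, 75.1 and 73.3 FPKM at E17.5, at 135, 121 and 127 FPKM at E19.5, and at 47.4, 104 and 125 FPKM in the adult. Spheres read between 0.10 and 3.11 FPKM, so every LG library was at least 15.3-fold above every sphere library in FPKM as deposited. The lowest LG library was adult replicate 1, whose recovered reads were 2.67 times its scaling total. Relative to recovered reads that fold is smaller. Day 7 spheres were -6.02 from the adult (SE 0.39, adjusted p = 0.00024, limma), the largest negative difference among the serpins tested.

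The embryonic stages did not overlap in Serping1, as in 4 of 11 serpins tested and 35.1% of 18578 genes. E19.5 was higher by 0.76 (SE 0.31, adjusted p = 0.295, limma), and without adult replicate 1 in the shared fit this passed (adjusted p = 0.0288). Against the adult neither E17.5 (-0.18, adjusted p = 0.651) nor E19.5 (0.58, adjusted p = 0.150) passed by limma, and rescaled to recovered reads the differences were 0.82 (adjusted p = 0.212) and 1.46 (adjusted p = 0.0409). In spheres against the adult, markers of fibroblasts (4 of 4 tested), endothelium (3 of 3) and leukocytes (4 of 4) also fell, and their part in the Serping1 result was not tested.

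Within clade F, Serpinf1 (pigment epithelium-derived factor, an anti-angiogenic secreted protein) read 5.94 to 8.12 FPKM at E17.5, 6.55 to 8.58 FPKM at E19.5 and 1.93, 3.34 and 7.11 FPKM in the adult. Spheres read 1.00 to 1.90 FPKM in replicate 2 and 0.14 to 0.46 FPKM in replicates 1 and 3. The groups of day 7 spheres and adult LG did not overlap, as for 52.4% of 17698 genes. The difference was -1.47 (adjusted p = 0.0566, limma) and passed without sphere replicate 2 (-1.86, adjusted p = 0.0395) or without adult replicate 1 (-1.81, adjusted p = 0.0463). Serpinf2 (alpha-2-antiplasmin) led this clade in spheres, at 0.20 to 2.60 FPKM, and read at most 0.85 FPKM in LG.

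Clade H holds Serpinh1, the collagen chaperone Hsp47 of the endoplasmic reticulum. It read 0.64 to 2.07 FPKM in spheres, 2.97 to 3.37 FPKM at E17.5, 2.11 to 2.24 FPKM at E19.5 and 1.07 to 3.36 FPKM in the adult, and it did not pass in the comparisons made here. Rescaled to recovered reads, it was 1.07 higher at E17.5 (adjusted p = 0.000435) and 0.60 higher at E19.5 (adjusted p = 0.0105, limma) than in the adult. On the values as deposited, 6 of 6 fibroblast markers, collagen genes among them, were called higher at each of these stages. Their part in the Serpinh1 result was not tested.

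In clade I, Serpini1 (neuroserpin, an inhibitor of tissue plasminogen activator best known in neurons) was highest in embryonic LG. It read 3.07, 2.81 and 3.60 FPKM at E17.5, 3.16, 3.92 and 4.67 FPKM at E19.5, 0.40, 0.22 and 0.58 FPKM in the adult and at most 0.10 FPKM in spheres. The embryonic and adult libraries did not overlap, as for 59.5% of 18578 genes at E17.5 and 58.8% at E19.5. Serpini1 was 1.58 higher at E17.5 (SE 0.17, adjusted p = 9.28e-05) and 1.81 higher at E19.5 (SE 0.17, adjusted p = 4.97e-05) than in the adult, by limma. Serpini2 was listed at 0.

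Clade A, mostly plasma proteins made by liver, had 13 to 18 of its 24 genes listed at 0 in each group. In adult LG clade A was carried by Serpina3k, a member of the antichymotrypsin group, at 205, 29.0 and 0 FPKM in replicates 1, 2 and 3. It was listed at 0 in all 17 other libraries. The call depended on the library, since the difference of -4.20 from the adult at each embryonic stage (SE 1.55, adjusted p = 0.0474 at E17.5 and 0.0473 at E19.5, limma) was lost without adult replicate 1 (adjusted p = 0.115 and 0.114) or adult replicate 2 (adjusted p = 0.120 at both stages), and on leaving out any 1 of the 6 embryonic libraries, where the largest adjusted p was 0.103.

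Serpina1b, an alpha-1-antitrypsin gene, read 8.07, 6.01 and 2.12 FPKM in the adult and had no read in the 6 embryonic libraries. Set against 3 reads per embryonic library, the adult mean in FPKM as deposited was at least 36.5-fold higher than E17.5 and 36.9-fold higher than E19.5. Recovered reads were 2.67, 2.57 and 1.10 times the scaling total in the adult libraries. Relative to recovered reads these limits are therefore smaller. The fitted difference was -2.54 at both stages (SE 0.34, adjusted p = 0.000318 and 0.000344, limma) and -2.52 in day 7 spheres (adjusted p = 0.00447). About 14.8% of its 100-base stretches occur in other genes, mostly Serpina1a, so reads could be split between them. Of the 5 hepatocyte markers, Alb and Apob were listed at 0 in adult LG, while Ttr, a liver plasma protein gene, read 12.6, 26.7 and 1.94 FPKM there, at most 0.91 FPKM in embryonic LG and 0 in spheres. Apoa1 went the other way, at 4.16 to 5.56 FPKM in embryonic LG and at most 0.21 FPKM in the adult. It was called higher at both embryonic stages by limma. Fgb read at most 0.25 FPKM in any library. Ttr was lower than in the adult by -2.82 at E17.5 (adjusted p = 0.00722), -2.64 at E19.5 (0.0101) and -3.37 in day 7 spheres (0.0163, limma), and its part in the Serpina1b and Serpina3k results was not tested.

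Serpina3i was the clade A gene of the spheres, at 0.86 to 11.5 FPKM against at most 0.45 FPKM in LG. It was 2.35 higher in day 7 spheres than in the adult (SE 0.51, adjusted p = 0.0137, limma). Serpina1e read 0.29 to 1.39 FPKM in spheres and at most 0.16 FPKM in LG, and Serpina3h, left out as a pseudogene, read 0.32 to 6.60 FPKM in spheres. In embryonic LG no clade A gene reached a group mean of 0.5 FPKM, and the highest was Serpina12 (vaspin) at 0.36 ± 0.23 (SD, n = 3) FPKM at E17.5.

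Clades C and D were low. Serpinc1 (antithrombin) read 0.04 to 0.66 FPKM over the 20 libraries, with 0.26 to 0.64 FPKM in embryonic LG and 0.04 to 0.15 FPKM in the adult. Serpind1 (heparin cofactor II) read at most 0.27 FPKM. Neither reached the level needed for a test.

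The number of serpins past the threshold was set against that of all genes. For E17.5 LG against adult LG, 5 of 11 serpins passed where 54% of 18578 genes did, 3 of them higher (29.1% of all genes) and 2 lower (24.9%). For E19.5 LG it was 6 of 11 where 54.2% did, with 4 higher (30.3%) and 2 lower (23.9%). For day 7 spheres it was 6 of 17 where 35.2% of 17698 genes did, with 4 higher (14.2%) and 2 lower (21.1%). The shares of serpins called were thus near the background in each comparison. At both embryonic stages the 2 lower were Serpina1b and Serpina3k, which entered the fit through adult LG alone. The E17.5 count fell to 3 without E17.5 replicate 1, E17.5 replicate 2 or E19.5 replicate 1, and it was 8 without adult replicate 3.

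By clade, the median difference at E17.5 from the adult was -3.37 for the 2 clade A genes tested, -0.38 for the 4 of clade B, 3.66 for Serpine2 of clade E and 1.58 for Serpini1 of clade I, beside 0.05 over all genes. At E19.5 it was -3.37, 0.18, 3.20 and 1.81, beside 0.09. In day 7 spheres it was -2.52 for the 3 clade A genes tested, 0.91 for the 9 of clade B, 4.51 for clade E and -6.02 for clade G, beside -0.08. A gene passed the level filter when its mean over the fitted libraries reached 0.5 FPKM, so genes high in a single group entered more easily. Serpina1b and Serpina3k, the 2 clade A genes of the LG fit, had no embryonic reads and entered through adult LG alone. The clade A medians at E17.5 and E19.5 could thus only be negative and are no contrast between clades.

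**Figure D4:**
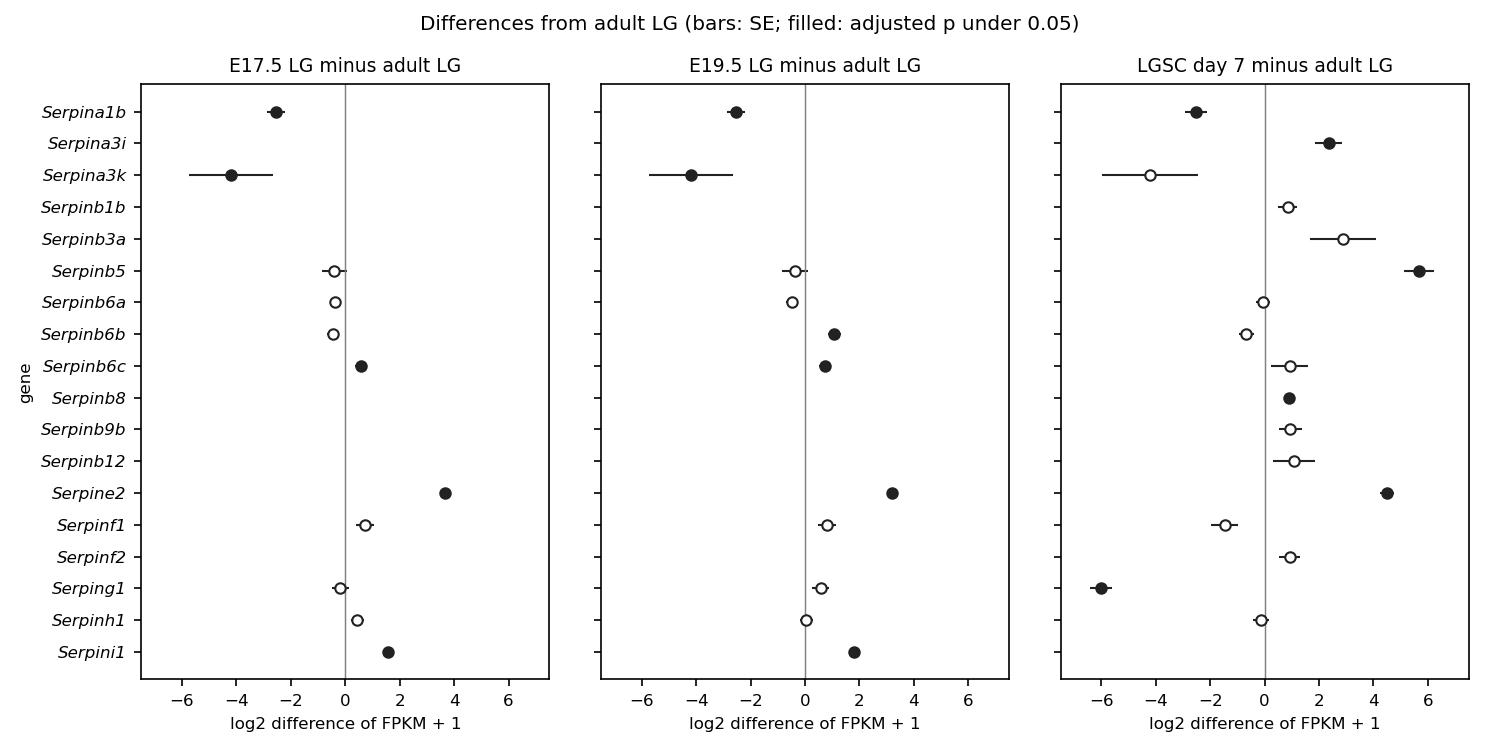
Difference from adult LG in log2(FPKM + 1) for each serpin tested, with SE bars, for E17.5 LG, E19.5 LG and LGSC day 7 spheres, and filled points for adjusted p under 0.05. Serpine2 is higher in all 3 comparisons (3.66, 3.20 and 4.51), Serping1 is lower in day 7 spheres (-6.02) and Serpina3k has a wide SE (1.55 in the 2 embryonic panels).

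Genes that serpins act on were counted from a list of 35 proteases, cofactors and the clearance receptor Lrp1. Over culture days 11 were tested and 2 passed, both higher, where 2.14% of all genes passed and 0.648% were higher. Plat, the tissue plasminogen activator that Serpine2 and Serpini1 inhibit, had a slope of 0.20 per day (SE 0.02, adjusted p = 0.00869, limma), with 17.1 and 12.5 FPKM at day 5 and 59.7, 48.8 and 46.7 FPKM at day 14. The complement protease C1s1, a target of Serping1, also passed (0.20 per day, SE 0.04, adjusted p = 0.0416).

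In LG 23 of the 35 were tested. Against the adult, E17.5 LG had 8 higher and 8 lower, and E19.5 LG had 9 higher and 7 lower. The shares of all genes that were higher and lower were 29.1% and 24.9% in the former and 30.3% and 23.9% in the latter. Plat was higher by 4.29 (adjusted p = 7.44e-06) and 4.44 (adjusted p = 7.27e-06), and the mast cell chymase Cma1 by 6.71 (adjusted p = 9.73e-06) and 7.11 (adjusted p = 8.30e-06), by limma. The membrane protease Prss8 was lower by -2.27 (adjusted p = 2.84e-05) and -2.09 (adjusted p = 5.04e-05). Between E17.5 and E19.5, Mcpt4 (2.35, adjusted p = 0.0288) and C1ra (1.60, adjusted p = 0.0455) were called higher, where 1.11% of all genes were. Plau, the urokinase gene, was listed at 0 in all 20 libraries.

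Day 7 spheres against the adult gave 2 higher (Plat and St14) and 9 lower of 19 partners tested, where 14.2% of all genes were higher and 21.1% lower. The complement proteases C1ra (-4.41, adjusted p = 0.000941) and C1s1 (-4.26, adjusted p = 0.00138, limma) were among the lower, as was their inhibitor Serping1. Of 14 other protease inhibitors found in the files, 4 of 11 tested were higher in day 7 spheres (Slpi, Wfdc2, Spint1 and Timp1), against the same 14.2%.

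The library of passage 10 spheres at day 7 was made against a different gene list and with more reads (25172949), so it was compared by value and not tested. Serpinb5 was again its highest serpin, at 121 FPKM, and Serpine2 read 63.5 FPKM, beside day 7 means at passage 2 of 257 ± 79.7 and 81.3 ± 22.3 (SD, n = 3). Serpinb2 (plasminogen activator inhibitor 2), however, read 78.2 FPKM there against 0.25 FPKM at passage 2, Serpinh1 read 49.5 against 1.79 FPKM, and Serpinb6a read 47.9 against 1.02 FPKM. Serpinb6b ran the other way, at 0.09 against 5.02 FPKM. Of the 8 serpins with at least 10 FPKM at passage 10, 5 had a passage 2 mean under 10% of that value, and of all 5333 genes at that level 50.6% did.

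**Figure D5:**
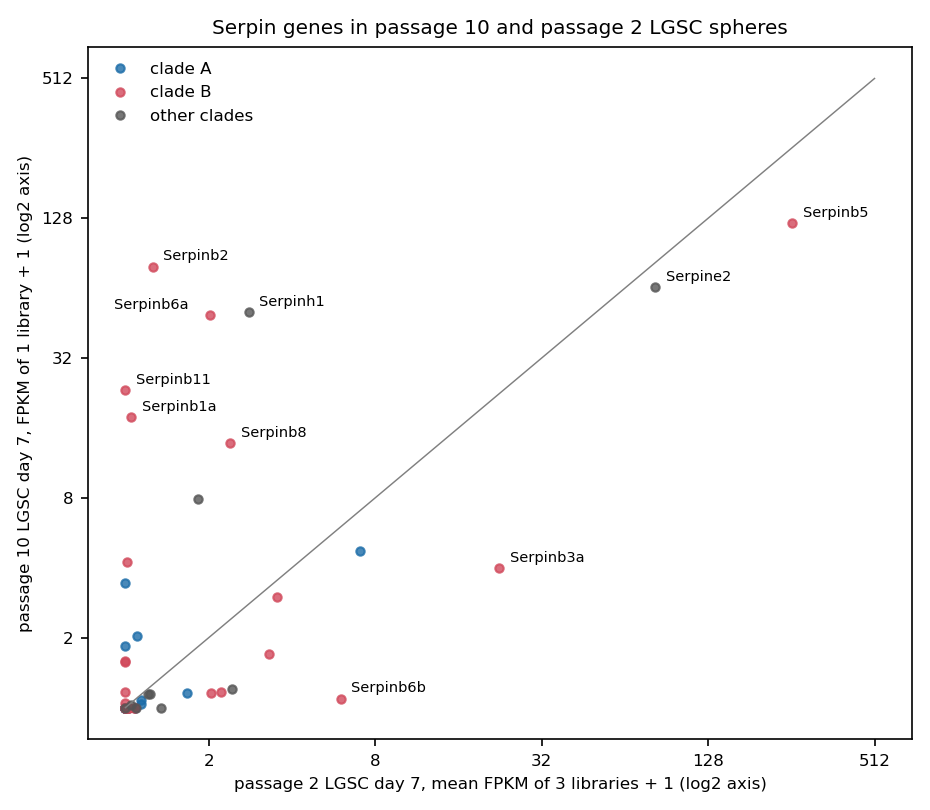
FPKM + 1 of serpin genes in 1 library of passage 10 LGSC spheres at day 7 against the mean of 3 passage 2 libraries at day 7, both on log2 axes, with the line of equal values. Serpinb5 and Serpine2 are high in both, while Serpinb2, Serpinh1 and Serpinb6a lie far above the line, at 78.2, 49.5 and 47.9 FPKM at passage 10.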

How the data were processed

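Basecalls were made with CASAVA 1.8, and the submitters' processing notes also name HISAT2 2.0.5, featureCounts 1.5.0-p3 and the build NCBIM37, without giving their order. The authors deposited 1 table of FPKM per library, and the gene lengths implied by these values fit GENCODE M21 (GRCm38), which was used for symbols and positions. Groups came from the sample labels. LGSC day 5 replicate 3 and the passage 6 and passage 20 spheres were not analysed here.

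Reads were recovered as whole multiples of the smallest FPKM step of each library. To within 0.01 and up to 1000 reads, 92.6% to 93.6% of values in the 20 libraries were whole. Where a gene with reads in other libraries had none in a group, its limit was the FPKM of 3 reads per library, which covers counting error only.

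A gene entered a fit when its FPKM averaged 0.5 or more there, and was tested with limma 3.58.1 (R 4.3.3, lmFit and eBayes with trend) on log2(FPKM + 1), with Benjamini-Hochberg adjustment over all genes tested and a threshold of 0.05. The slope fit used the 11 passage 2 sphere libraries, the LG comparisons shared 1 fit of 9 libraries, and day 14 against day 7 and day 7 against adult used 6 each. The method was tested on simulated data. Other steps used pandas 2.3.3 and numpy 2.4.6 under Python 3.11.15, with matplotlib 3.10.9 for plots.

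The 61 members and the gene lists were chosen with earlier results of these data known. Named genes were Serpinb6b, each serpin past the threshold in a comparison, the highest member of each clade in spheres, embryonic LG and adult LG, and their paralogs. Other genes are given by ranges, and replicate 2 of the spheres was singled out after its values were seen. The values of 1 member are not reported here.

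Sphere libraries that share a replicate number departed from the day means in the same direction (mean correlation 0.46, 0.26 to 0.72 over 15 pairs, against -0.22 for different numbers), so a fit with the replicate number as a block was made. LG libraries did not (-0.01 over 9 pairs). Alternatives were a pseudocount of 0.1, no filter or a filter at 1 FPKM, rescaling to recovered reads, limma-voom on recovered reads, all 20 libraries in 1 fit, other day terms and leaving out each library.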

Additional observations from a re-analysis of the deposited data

Results flagged for a closer look

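Serpinb6b is listed because its effects against adult LG differed between the embryonic stages, by 1.53 on the log2 scale (SE 0.23, adjusted p = 0.0230, limma), with -0.45 at E17.5 and 1.08 at E19.5. All 3 E19.5 libraries lay above all 3 E17.5 libraries, as for 19.8% of 18578 genes. The call was lost in 7 of 17 settings, and the E17.5 difference turned to 0.42 on rescaling to recovered reads.

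The other 6 entries are signals in the passage 10 library for genes listed at 0 in the 20 libraries compared. Serpinb11 read 22.4 FPKM (1162 reads) and Serpina3n read 2.42 FPKM (119 reads). Serpina3g (0.839 FPKM), Serpinb7 (0.58 FPKM), Serpinb3b (0.573 FPKM) and Serpinb6d (0.172 FPKM) rested on 6 to 42 reads. Among all 5333 genes with at least 10 FPKM in that library, 577 (10.8%) were listed at 0 in all 20 others. The passage 10 table was made against another gene list, so passage and processing cannot be told apart.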

How the results depend on the processing

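The counts of serpins past the threshold were recomputed under each alternative. For the slope over culture days the count was 1, and it was 2 with the replicate block, 3 with limma-voom and the block, 0 with days 7, 10 and 14 only, and 0 to 1 on leaving out 1 library. Day 14 against day 7 gave 0, and 1 in the fit of all 20 libraries. E17.5 LG against adult LG gave 5, and 3 to 8 on leaving out 1 library. E19.5 LG against adult LG gave 6, and 10 with no filter. E19.5 LG against E17.5 LG gave 1, and 0 with limma-voom, 0 with limma-voom and the block, 0 with the replicate block, and 0 to 2 on leaving out 1 library. Same-numbered LG libraries share only a number, so that block is given only here. Day 7 spheres against adult LG gave 6, and 10 with limma-voom, 11 with limma-voom and the block, and 11 in the fit of all 20 libraries. The difference of Serpinb6b from the adult reversed to 0.42, 0.49 and 0.48 at E17.5, and to 0.29, 0.34 and 0.33 in day 7 spheres, on rescaling to recovered reads, with limma-voom and with limma-voom and the block. In all, 330 of 380 recomputed values of named genes kept their direction and side of the threshold, 38 lost it, 6 gained it and 6 reversed. Apart from rescaling, the cause was not tested. The fits of limma-voom with the block, those without sphere replicate 2 and the F test of replicate number were chosen after seeing the data. With 6434281 to 9257025 reads per library, serpins under 0.5 FPKM were not tested.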
